A study of Mus musculus with 6 samples.

Results

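Regulatory T cells of the mouse liver were chosen by their measured UMI counts, and made up 394 of 66935 filtered cell barcodes, which is 3.57% of the 11049 barcodes of T cells. A barcode counted as a regulatory T cell when it held at least 1 unique molecular identifier (UMI, a tag that marks 1 captured transcript) of the T cell receptor chains Cd3d, Cd3e or Cd3g, at least 1 UMI of Foxp3, and none of Cd8a, Cd8b1 or the B cell gene Cd79a. Barcodes with 2 or more of the Kupffer and sinusoidal endothelial genes Clec4f, Vsig4, Stab2 and Clec4g were left out. Barcodes needed at least 300 genes and under 25% mitochondrial UMIs. The 6 libraries came from whole livers and formed 3 groups of 2: control livers, pre-metastatic livers, and livers bearing macro-metastases. The labels describe both metastatic stages as an orthotopic colorectal cancer model and the controls as control genotype. Every library, controls included, carries the name CT26-GFP (a murine colon cancer line tagged with a fluorescent protein), and the labels do not say whether control mice received these cells. No strain, age or time point is named. The livers were minced, digested with collagenase, freed of erythrocytes and dead cells and captured on the BD Rhapsody system, so shares describe captured cells. Nothing states that the 2 replicates of a group were separate animals, so p-values measure the spread between these libraries, which may be technical.

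Regulatory T cells are the Cd4+ T cells that hold immune responses in check. The transcription factor Foxp3 sets their programme. It keeps high the inhibitory receptor CTLA-4, which takes costimulatory ligands off antigen-presenting cells, and CD25, the high-affinity chain of the interleukin-2 receptor, with which these cells draw on interleukin-2 made by other T cells. Resting regulatory T cells circulate through lymphoid organs with the chemokine receptor CCR7 and the factors TCF-1 and LEF-1. Effector and tissue regulatory T cells lose these and gain ICOS, KLRG1, the interleukin-33 receptor ST2 and receptors of the tumour necrosis factor (TNF) receptor family, and many of them make amphiregulin, a growth factor for epithelium.

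The libraries held 41914149 to 90819751 UMIs, and the macro-metastatic libraries were the deepest. The control libraries gave 101 and 56 regulatory T cells, the pre-metastatic libraries 72 and 75, and the macro-metastatic libraries 32 and 58. Their median UMI count was 1801 and 2166.5 in control livers, 1807.5 and 2039 in pre-metastatic livers and 2925.5 and 2885.5 in macro-metastatic livers. Summed over these cells, a library held 117946 to 244420 UMIs, so 1 UMI stood for 4.09 to 8.48 counts per 1000000 summed UMIs (CPM), the unit of all levels below. Pairs of libraries shared 126 to 222 barcode sequences, none of them between regulatory T cells. A doublet caller predicted 1537 doublets among the kept barcodes (2.30%) and 0 among the regulatory T cells.

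Foxp3, which chose the cells, had 762 to 992 CPM in their sums. It was found in 2 of 3512 B cells (0.0569%), 12 of 9679 Kupffer cells (0.124%) and 25 of 2386 Cd8 T cells (1.05%). At the threshold, 146 members held 1 Foxp3 UMI and 248 held 2 or more. Ctla4 was detected in 87.0% of those with 1 UMI and in 95.6% of those with more, against 18.1% of the Cd4+ T cells without a Foxp3 UMI. Ikzf2, which encodes the regulatory T cell factor Helios, was detected in 56.8% and 76.2%, against 6.86%. Median UMI counts over the libraries were 1599.5 to 2088 for members with 1 Foxp3 UMI, 1830.5 to 3614 for those with more and 1809 to 3095 for the Cd4+ T cells. A Cd4 UMI was found in 201 of the 394 members (51.0%). Cd3e was detected in 369 members (93.7%). The 4 markers that go with the label, Foxp3, Ctla4, Ikzf2 and Cd3e, were thus all present. Foxp3 was so by construction, and Cd3e was favoured by the rule, which asked for Cd3d, Cd3e or Cd3g.

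Regulatory T cells made up between 2.84% and 4.56% of the T cells in the 6 libraries, and whether that share was higher with macro-metastases depended on how T cells were counted. They made up 3.37% and 2.84% of T cells in control livers, 3.25% and 4.56% in pre-metastatic livers and 4.14% and 4.02% in macro-metastatic livers. Exact (Clopper-Pearson) 95% intervals of these single libraries ran from 2.15% to 5.79% in all, and cover counting error only. Macro-metastatic libraries averaged 4.08% ± 0.0831 and control libraries 3.10% ± 0.375 (SD, n = 2 each), and edgeR's quasi-likelihood test over 5 T cell subsets gave a log2 difference of 0.38 (SE 0.31, adjusted p = 0.316). The pre-metastatic share, 3.91% ± 0.923 against 3.10% ± 0.375 in control, differed by 0.31 (adjusted p = 0.485). The macro-metastatic and pre-metastatic shares differed by 0.07 (adjusted p = 0.822), and by −0.16 without pre-metastatic replicate 1.

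**Figure D1:**
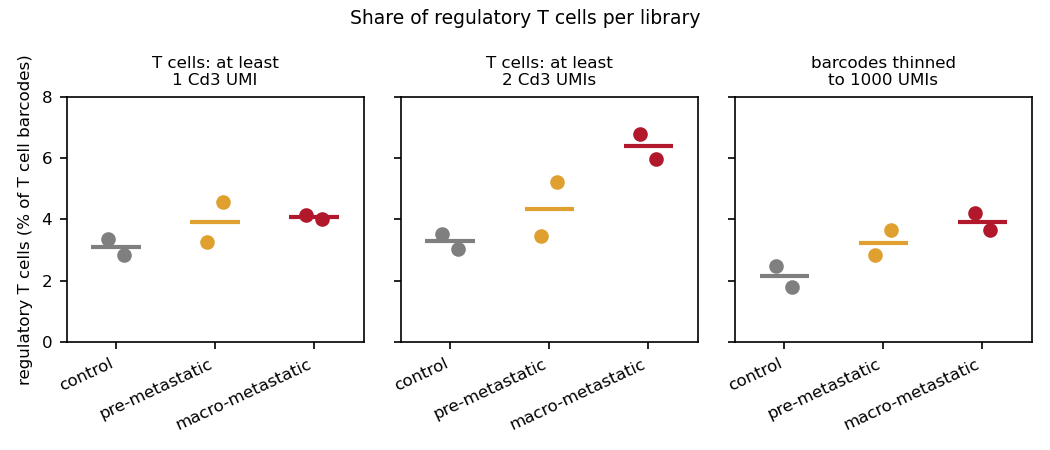
Share of regulatory T cells among T cell barcodes, 1 point per library and a line at the group mean, under 3 ways of counting (y axis, percent of T cells). The macro-metastatic libraries sit at 4.02% and 4.14% with 1 Cd3 UMI required and at 5.98% and 6.81% with 2 required, where both lie above all 4 other libraries.

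The T cell total itself differed between stages, and the part of this in the shares was not tested. Barcodes with a single Cd3 UMI were 12.1% and 13.2% of the T cells in control livers, 15% and 15.1% in pre-metastatic livers and 44.9% and 35.1% in macro-metastatic livers. T cell barcodes with at least 5 UMIs each of the neutrophil genes S100a8 and S100a9 were 0.400% and 0.506% in control livers, 3.66% and 1.95% in pre-metastatic livers and 33.2% and 22.9% in macro-metastatic livers, while among regulatory T cells such barcodes numbered 1 in each macro-metastatic library and 0 elsewhere. With 2 Cd3 UMIs required, regulatory T cells were 3.53% and 3.03% of T cells in control livers, 3.45% and 5.23% in pre-metastatic livers and 6.81% and 5.98% in macro-metastatic livers, and the macro-metastatic share was higher than in control (log2 difference 0.93, SE 0.26, adjusted p = 0.0405). In another run, barcodes with a Cd3 UMI and at least 1000 UMIs were thinned to 1000 UMIs and gated again. This changed the T cell total along with the depth. The total went from 3001 and 1975 barcodes to 2610 and 1745 in control livers. It went from 2213 and 1645 to 1941 and 1424 in pre-metastatic livers, and from 773 and 1442 to 546 and 1099 in macro-metastatic livers. The shares were then 2.49% and 1.78% in control livers, 2.83% and 3.65% in pre-metastatic livers and 4.21% and 3.64% in macro-metastatic livers (0.84 for macro-metastatic against control, adjusted p = 0.0423). With 2 Foxp3 UMIs required the shares were 2.07% and 1.52% in control livers, 1.54% and 2.92% in pre-metastatic livers and 3.49% and 3.26% in macro-metastatic livers (0.89, SE 0.36, adjusted p = 0.0686), and with a Cd4 UMI required 1.60% and 1.42%, 1.67% and 2.25%, and 2.33% and 2.29% in the same order of stages (0.60, adjusted p = 0.182), so neither passed. At 750 UMIs the difference was 0.89 (adjusted p = 0.0354). Not every kept barcode with a Foxp3 UMI met the rule for regulatory T cells. Control livers held 123 and 71 such barcodes, and 101 and 56 of them met it. Pre-metastatic livers held 86 and 97, of which 72 and 75 passed. Macro-metastatic livers held 59 and 101, of which 32 and 58 passed. Those with no Cd3 UMI were 9 and 4, 8 and 9, and 12 and 17, by stage in this order. What this loss did to the shares was not tested. As a part of all kept barcodes regulatory T cells were 1.06% and 0.540% in control livers, 0.698% and 0.704% in pre-metastatic livers and 0.266% and 0.413% in macro-metastatic livers (all cell types in the total).

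Against the other Cd4+ T cells of the same livers, regulatory T cells held more of the transcripts of their core programme. The comparison set was 2127 T cell barcodes with a Cd4 UMI, no Foxp3 and no Cd8 UMI. Zbtb16, the factor of natural killer T cells, had 2 UMIs in all regulatory T cells, against 33.9 to 131 CPM in this set, whose makeup of T cell types was not resolved. Sums of both cell sets were compared within each library, without the genes of the rule and without Cd4. EdgeR's quasi-likelihood test called 1291 of 5542 genes, 23.3%, of which 589 were higher and 702 lower in regulatory T cells (10.6% and 12.7%). The median over all genes tested was −0.03. Of the core list, 17 of the 22 members tested were higher and 1 was lower, with a median log2 difference of 2.10.

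Ikzf2 showed the clearest gap among the markers. It had 916 to 1276 CPM in regulatory T cells (median 1088) and 25 to 123 CPM in the other Cd4+ T cells (median 63.7). The ranges did not meet, and the log2 difference was 4.02 (SE 0.17, adjusted p = 1.96e-12, higher in 6 of 6 libraries). Ctla4 had 1818 to 3193 CPM (median 2236) against 145 to 519 CPM (median 271), a log2 difference of 3.07 (SE 0.17, adjusted p = 2.37e-10). With every barcode thinned to 1000 UMIs, which kept 372 regulatory T cells (93 and 52 from control, 66 and 72 from pre-metastatic and 32 and 57 from macro-metastatic livers), Ctla4 was detected in 78.2% of regulatory T cells against 11.4% of the other Cd4+ T cells, 18.4% of Cd8 T cells and 2.09% of B cells. Unthinned these shares were 92.4%, 18.1%, 28.8% and 4.58%. Il2ra, the CD25 gene, had 269 to 636 CPM against 60.4 to 143 CPM (2.12, SE 0.21, adjusted p = 2.77e-07). Izumo1r, the folate receptor 4 gene, was higher by 1.99, the neuropilin gene Nrp1 by 2.18, Ikzf4, which encodes the Helios relative Eos, by 3.13 and Itgae, the integrin CD103, by 4.43. The TNF receptor genes Tnfrsf9 (4-1BB), Tnfrsf4 (OX40) and Tnfrsf18 (GITR) were higher by 3.96, 2.95 and 1.85. The exception was Fgl2, a secreted fibrinogen-like protein with suppressive activity, at 47.2 to 89.6 CPM against 70.7 to 319 CPM (−1.65, SE 0.20, adjusted p = 4.82e-06).

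**Figure D2:**
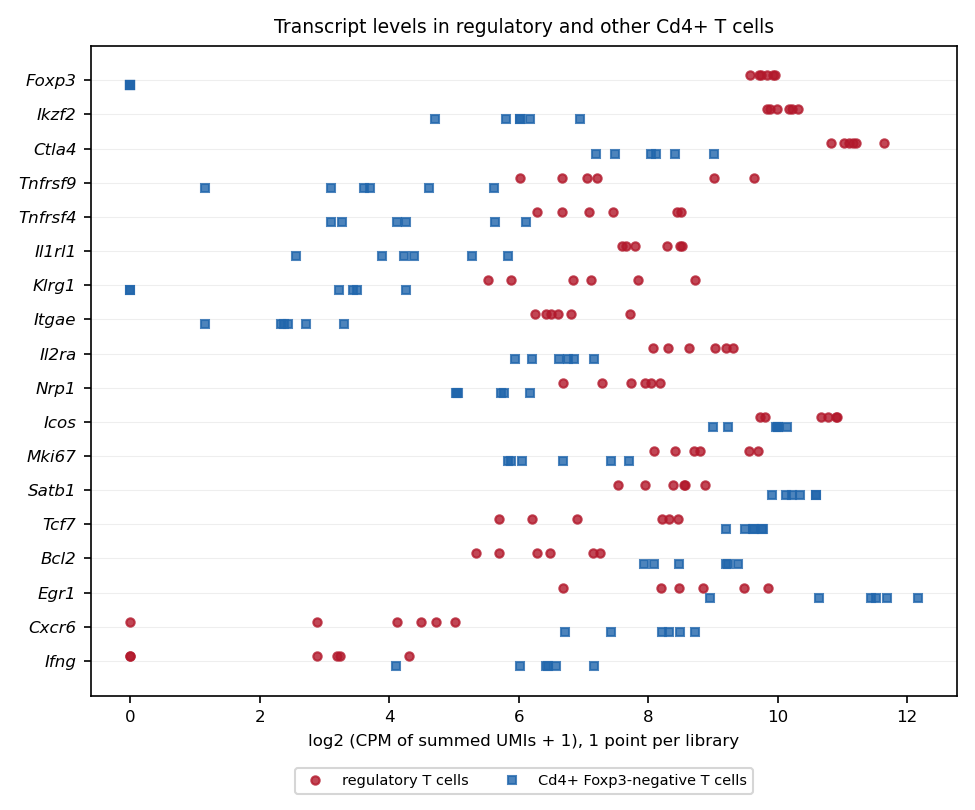
Levels of 18 transcripts in regulatory T cells (red circles) and in Cd4+ Foxp3-negative T cells (blue squares), 1 point per library, as log2 of CPM + 1 (x axis). Foxp3 was used to choose the cells. Ikzf2 lies at 916 to 1276 CPM in regulatory T cells and at 25 to 123 CPM in the other set, and Satb1, Tcf7, Bcl2, Cxcr6 and Ifng lie to the right in the other set.

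Effector and tissue genes were also higher. Of 22 such genes tested 16 were higher and 2 lower, with a median of 1.15. Il1rl1, which encodes the ST2 chain of the interleukin-33 receptor, had 193 to 368 CPM in regulatory T cells and 4.92 to 55.9 CPM in other Cd4+ T cells (3.65, SE 0.27, adjusted p = 9.80e-09). After thinning it was detected in 22% of regulatory T cells, 1.17% of other Cd4+ T cells and 0.221% of Cd8 T cells. Klrg1, an inhibitory receptor for cadherins, was higher by 3.79, Areg (amphiregulin) by 3.52, Maf by 1.1 and Gata3, a factor of tissue regulatory T cells, by 0.85. Id2 and Tbx21, which encodes the type 1 helper factor T-bet, were the lower members, Id2 by 0.99. Of 14 resting genes tested 11 were lower and 1 higher (Foxo1, 0.61), with a median of −0.86. Tcf7, which encodes TCF-1, had 50.9 to 352 CPM in regulatory T cells and 591 to 878 CPM in other Cd4+ T cells (−2.08, SE 0.23, adjusted p = 1.54e-06). Lef1 was lower by 1.30, the chromatin organiser Satb1 by 2.02 and the survival gene Bcl2 by 2.30.

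Cytokines of helper and cytotoxic T cells were scarce. Il4 had no UMI in any regulatory T cell, which allows up to 2.63 CPM (3 UMIs of 1138802, counting error only), against 5.89 to 384 CPM in the other Cd4+ T cells. Ifng had 0 to 18.9 CPM against 16.2 to 142 CPM (−3.73, SE 0.39, adjusted p = 5.85e-07) and Tnf 19.2 to 48.2 CPM against 48.6 to 602 CPM (−2.44). The CD40 ligand gene Cd40lg, through which helper T cells license B cells, was lower by 3.17, and Cxcr6, a homing receptor of liver-resident T cells, by 4.15. Il10, the anti-inflammatory cytokine, had 0 to 120 CPM against 0.691 to 148 CPM with overlap (2.52, SE 0.72, adjusted p = 0.0145), a call lost without macro-metastatic replicate 2 (1.89) and without control replicate 1 (1.82), and Itgb8, an integrin chain that frees active TGF-beta, was higher by 4.82.

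Transcripts of other cell types differed between the same sums. Of 6 genes of Cd8 T and NK cells tested all were lower in regulatory T cells (Xcl1, Klrd1, Klrk1, Nkg7, Ccl5 and Gzma, median −3.03). The 12 genes of that list summed to 65.5 to 500 CPM in regulatory T cells. In the other Cd4+ T cells the sum was 1055 and 954 CPM in control livers, 676 and 876 CPM in pre-metastatic livers and 483 and 477 CPM in macro-metastatic livers. Of 11 neutrophil genes 9 were lower and 0 higher, S100a8 and S100a9 among them. Their list summed to 12.8 to 5070 CPM in regulatory T cells, in each library less than in the other Cd4+ T cells. There the sum was 46.3 and 113 CPM in control livers, 828 and 134 CPM in pre-metastatic livers and 10275 and 2874 CPM in macro-metastatic livers. Of 7 acute phase genes 5 were lower and of 6 monocyte and macrophage genes 4, and 0 of either list were higher. Of 13 hepatocyte genes 1 was higher and 1 lower. The part of these transcripts, and of the cells that make them, in the comparison with other Cd4+ T cells, Ifng and Tnf included, was not tested.

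Regulatory T cells held more transcripts of dividing cells and fewer of the immediate-early response. All 20 cell cycle genes tested were higher (median 1.33). Mki67, the Ki-67 gene, had 270 to 833 CPM against 55.9 to 208 CPM (2.15, SE 0.24, adjusted p = 1.67e-06), and after thinning it was detected in 14.8% of regulatory T cells, 3.17% of other Cd4+ T cells, 6.70% of Cd8 T cells and 2.37% of B cells. Of 22 immediate-early and heat-shock genes tested 11 were lower and 0 higher, among them Egr1 (−2.43), Fos (−1.08) and Fosb (−1.05). Of 18 glycolysis and hypoxia genes 6 were higher, and of 15 genes of MHC class I presentation 0 were called in either direction, 0 of 15 being read against the 23.3% of all genes. These 4 lists had median log2 differences of 1.33, −0.50, 0.42 and 0.09.

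Against the 2386 Cd8 T cell barcodes edgeR called 1022 of 7442 genes, 13.7%, with 492 higher (6.61%) and 530 lower (7.12%) in regulatory T cells. Of 22 core genes tested 16 were higher and 3 lower (median 2.26). Of 22 effector and tissue genes 12 were higher and 2 lower (median 0.91), and of 16 resting genes 3 were higher and 7 lower (median −0.35). Il1rl1 (5.51), Tnfrsf4 (4.69), Izumo1r (3.90), Il2ra (3.47), Ikzf2 (3.07) and Ctla4 (2.83) were among the higher genes, and Icos by 2.04. The cytotoxic genes Gzma and Gzmb were lower by 7.09 and 3.02, the chemokine gene Ccl5 by 5.68 and the natural killer receptor gene Klrd1 by 6.55. Tnfrsf9, at 64.0 to 797 CPM in regulatory T cells and 16.7 to 391 CPM in Cd8 T cells, differed by 1.18 (SE 0.24, adjusted p = 0.00208). Of 21 cell cycle genes 9 were higher and 0 lower.

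With macro-metastases, transcripts of 4 TNF-family receptors, of Icos, of 8 effector and tissue genes and of 5 glycolysis and hypoxia genes rose in regulatory T cells, while 3 transcripts of the resting state fell. Tnfrsf1b counts among both the TNF-family receptors and the effector and tissue genes. Ctla4 and Ikzf2 were not called. EdgeR's quasi-likelihood test called 230 of 4148 genes between macro-metastatic and control livers, 5.54%, of which 178 were higher (4.29%) and 52 lower (1.25%), with a median change of −0.01. A total of 768 had an unadjusted p under 0.05. Without control replicate 1 the test called 107 genes, against 163 to 301 without another library. DESeq2, which 13426 genes entered, called 99. The fit on barcodes thinned to 1000 UMIs called 104 of only 1534 genes tested. By DESeq2, 5 costimulatory receptors, 4 effector and tissue genes and 3 glycolysis and hypoxia genes rose, and 1 resting gene fell. The other Cd4+ T cells of these livers, fitted in the same way, had 961 called genes of 7976 (12%, with 8.7% higher and 3.35% lower). Of the 230 genes called in regulatory T cells, 229 were also tested in the other Cd4+ T cells. There 222 of them changed in the same direction. The same count was not taken over all genes tested in both sets, so these 222 have no background to be read against. For some genes, changes in the other Cd4+ T cells and in B cells (Cd79a+, no Cd3 UMI) are set beside those of regulatory T cells below. The 3 cell sets share their libraries, and a part of the whole library in a result was not tested.

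Foxp3 stood at 916 and 762 CPM in control livers, 974 and 842 CPM in pre-metastatic livers and 992 and 858 CPM in macro-metastatic livers, with no test since it chose the cells. Members with 2 or more Foxp3 UMIs were 61.4% and 53.6% in control livers, 47.2% and 64.0% in pre-metastatic livers and 84.4% and 81.0% in the deeper macro-metastatic libraries. Ctla4 had 2283 and 1818 CPM in control livers, 3193 and 2188 CPM in pre-metastatic livers and 2086 and 2364 CPM in macro-metastatic livers. Its levels in macro-metastatic and control livers overlapped and differed by 0.18 (SE 0.22, adjusted p = 0.744). Ikzf2 had 916 and 1191 CPM in control livers, 1276 and 1158 CPM in pre-metastatic livers and 1017 and 944 CPM in macro-metastatic livers (macro-metastatic against control −0.04, SE 0.22, adjusted p = 0.957). Il2ra had 524 and 269 CPM in control livers, 314 and 395 CPM in pre-metastatic livers and 636 and 588 CPM in macro-metastatic livers (0.65, SE 0.29, adjusted p = 0.243). Of the 20 core genes tested 4 were higher, the receptors described next, and 1 was lower, with a median of 0.61. The lower member was Nt5e, the ectoenzyme CD73, at 8.48 and 51.5 CPM in macro-metastatic and 229 and 76.8 CPM in control libraries (−2.09, adjusted p = 0.0362). That call was lost without macro-metastatic replicate 1 (−1.57, adjusted p = 0.129) and without control replicate 1 (−1.04, adjusted p = 0.571).

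Of 10 costimulatory receptor genes tested 6 rose and 1 fell, with a median change of 1.30. Tnfrsf9 (chromosome 4, 150914562 to 150946102, plus strand, mouse build GRCm38), which encodes 4-1BB, had 147 and 64.0 CPM in control livers, 132 and 101 CPM in pre-metastatic livers and 797 and 519 CPM in macro-metastatic livers. The macro-metastatic libraries lay above all others, and the change from control was 2.60 (SE 0.35, adjusted p = 0.000201). Tnfrsf18 (chromosome 4, 156026164 to 156028895), which encodes GITR, had 20.5 and 51.2 CPM in control livers, 18.9 and 43.9 CPM in pre-metastatic livers and 271 and 172 CPM in macro-metastatic livers (2.73, SE 0.48, adjusted p = 0.00164), with a similar gap between macro-metastatic livers and the rest. Tnfrsf4 (chromosome 4, 156013843 to 156016612), its neighbour, which encodes OX40, had 135 and 76.8 CPM in control livers, 101 and 175 CPM in pre-metastatic livers and 365 and 348 CPM in macro-metastatic livers (1.75, SE 0.35, adjusted p = 0.00438), with 1.45 (adjusted p = 0.0509) without control replicate 2. Icos (chromosome 1, 60977927 to 61000320), whose product binds ICOS ligand, had 843 and 896 CPM in control livers, 1917 and 1758 CPM in pre-metastatic livers and 1925 and 1630 CPM in macro-metastatic livers (1.09, SE 0.21, adjusted p = 0.00382), so both later stages lay above control. Tnfrsf1b, the second TNF receptor, rose by 1.52, with the call lost without macro-metastatic replicate 1 (1.12) and without either control library (1.58 and 1.49), and the adhesion receptor gene Cd2 rose by 1.87. Cd226, the activating receptor that competes with TIGIT, was lower by 1.87 (adjusted p = 0.0473), a call that was lost without macro-metastatic replicate 1 (−2.16, adjusted p = 0.0562), macro-metastatic replicate 2 (−1.47, adjusted p = 0.274) or control replicate 1 (−1.05, adjusted p = 0.550), with RLE factors, with DESeq2, with a Cd4 UMI required and after thinning. Cd28, the main costimulatory receptor, had 534 and 532 CPM in macro-metastatic against 675 and 493 CPM in control libraries (−0.08, adjusted p = 0.913). In the other Cd4+ T cells Tnfrsf9 changed by 2.80, Tnfrsf18 by 2.79, Tnfrsf4 by 2.92, Icos by 1.09, Tnfrsf1b by 1.39 and Cd2 by 1.76. The count of 6 higher members became 4 without control replicate 2 and after thinning.

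All 4 TNF receptor genes that rose lie on chromosome 4. The start regions of 3 of them, Tnfrsf9, Tnfrsf4 and Tnfrsf18, are shown because the NF-kB and AP-1 factors act downstream of T cell activation and Foxp3 binds forkhead sites. The windows are RefSeq sequences of build GRCm38.p6, plus strand, from 250 bases before to 50 bases after the start: chr4:150927749-150928048 for the downstream of 2 listed Tnfrsf9 starts, chr4:156013445-156013744 for Tnfrsf4 and chr4:156026072-156026371 for Tnfrsf18. Capitals mark matches to the NF-kB motif (GGGA, any base, TT, any base, CC) or to the AP-1 motif TGANTCA, searched on both strands together with the forkhead motif TGTTTAC.
Tnfrsf9: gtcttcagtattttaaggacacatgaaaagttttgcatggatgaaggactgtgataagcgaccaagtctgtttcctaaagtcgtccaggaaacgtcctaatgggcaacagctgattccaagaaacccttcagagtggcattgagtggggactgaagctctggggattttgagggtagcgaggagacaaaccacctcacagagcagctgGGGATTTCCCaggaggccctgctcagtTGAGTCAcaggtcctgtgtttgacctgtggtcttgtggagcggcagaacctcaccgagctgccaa
Tnfrsf4: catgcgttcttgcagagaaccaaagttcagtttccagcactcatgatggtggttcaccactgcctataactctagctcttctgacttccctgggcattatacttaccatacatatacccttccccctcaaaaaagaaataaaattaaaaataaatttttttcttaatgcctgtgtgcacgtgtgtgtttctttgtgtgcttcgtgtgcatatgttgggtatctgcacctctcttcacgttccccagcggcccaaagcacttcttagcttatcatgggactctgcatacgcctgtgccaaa
Tnfrsf18: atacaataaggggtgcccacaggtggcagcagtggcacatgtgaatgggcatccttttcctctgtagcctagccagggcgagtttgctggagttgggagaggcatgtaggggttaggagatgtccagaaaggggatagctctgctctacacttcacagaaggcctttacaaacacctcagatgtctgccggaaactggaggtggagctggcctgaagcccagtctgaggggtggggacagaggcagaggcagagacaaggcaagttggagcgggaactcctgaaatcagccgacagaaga
The Tnfrsf9 window holds an NF-kB match that begins 42 bases before the start and an AP-1 match that begins 15 bases before it. No letters of the 3 motifs occur in the windows of Tnfrsf4, Tnfrsf18 or the upstream Tnfrsf9 start. Among 32851 windows of the same length the NF-kB motif occurs in 1.20%, the AP-1 motif in 7.81% and the forkhead motif in 3.65%. Which Tnfrsf9 start was used in these cells cannot be read from the counts.

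**Figure D3:**
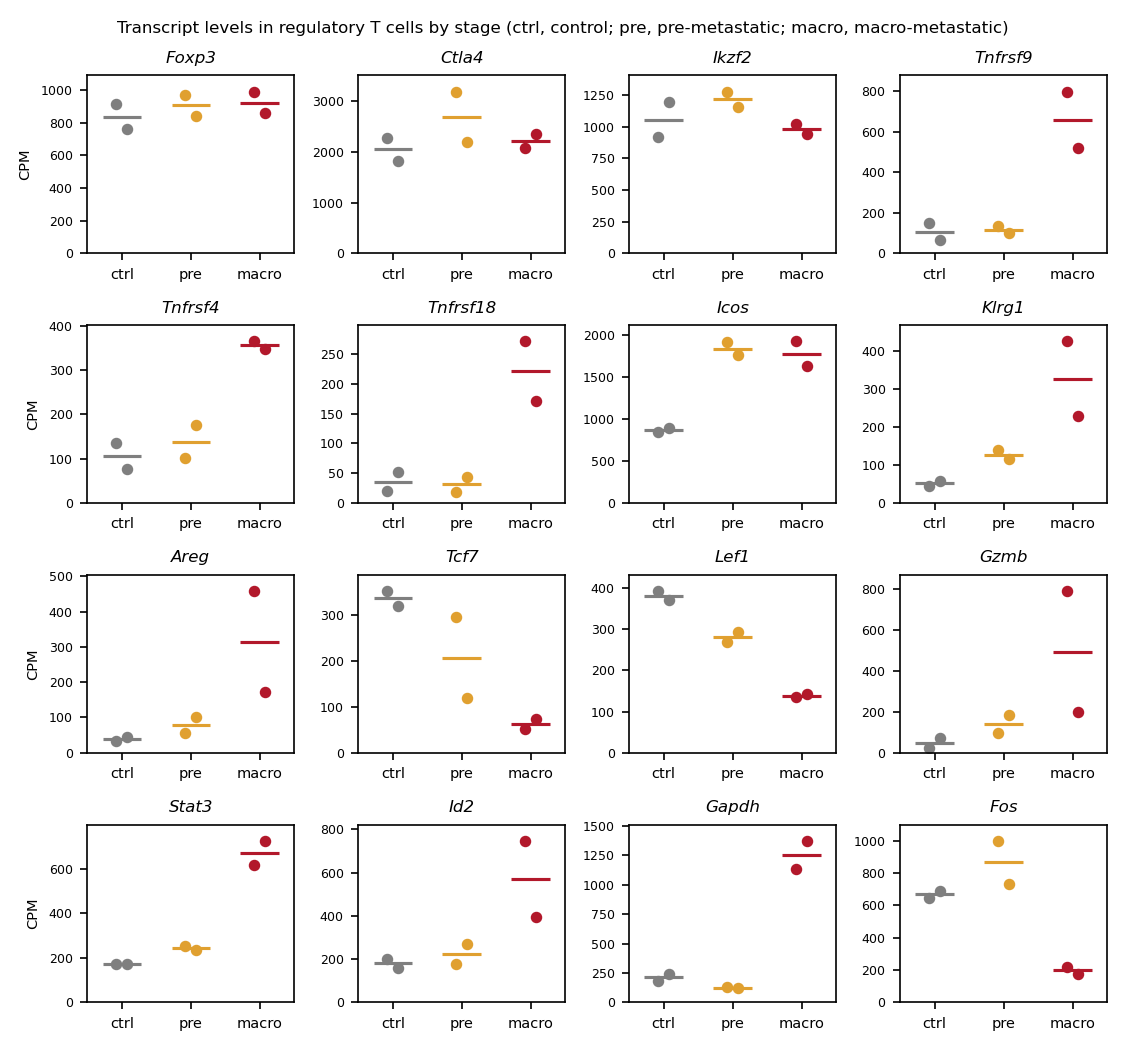
Levels of 16 transcripts in the regulatory T cells of each library (y axis, CPM from 0, a scale of its own per panel), with a line at the mean of each stage. Foxp3, Ctla4 and Ikzf2 overlap between macro-metastatic and control libraries, Tnfrsf9 lies at 519 and 797 CPM in macro-metastatic libraries and at most at 147 CPM elsewhere, and Icos is already at 1758 and 1917 CPM in pre-metastatic libraries.

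Effector and tissue genes rose for 8 of 21 tested and fell for 0, with a median of 0.89. Klrg1 had 45.0 and 57.6 CPM in control livers, 138 and 114 CPM in pre-metastatic livers and 424 and 227 CPM in macro-metastatic livers (2.69, SE 0.40, adjusted p = 0.000394). Areg had 32.7 and 44.8 CPM in control livers, 56.6 and 101 CPM in pre-metastatic livers and 458 and 172 CPM in macro-metastatic livers (3.02, SE 0.50, adjusted p = 0.000944). Both genes were ordered control, pre-metastatic, macro-metastatic with no overlap, and their calls between macro-metastatic and control livers held under every alternative run. Nfil3, a circadian and cytokine-induced factor, rose by 1.99 (1.92 in B cells, 2.38 in other Cd4+ T cells), and by 1.33 (adjusted p = 0.0597) without macro-metastatic replicate 1. Id2, an inhibitor of basic helix-loop-helix factors, had 200 and 160 CPM in control livers, 176 and 272 CPM in pre-metastatic livers and 746 and 395 CPM in macro-metastatic livers (1.67, SE 0.34, adjusted p = 0.00523), and 1.18 (adjusted p = 0.0659) without macro-metastatic replicate 1. The other called members were S100a4, Tnfrsf1b, Rora and Lgals1. S100a4 and Rora lost the call without any 1 of the macro-metastatic and control libraries (0.64 to 0.99 and 0.75 to 1.03), and Lgals1 changed by 0.78 (adjusted p = 0.326) without control replicate 1 and 1.02 (adjusted p = 0.0904) without macro-metastatic replicate 2. Il1rl1, by contrast, had 200 and 314 CPM in control livers, 358 and 368 CPM in pre-metastatic livers and 220 and 193 CPM in macro-metastatic livers (−0.24, SE 0.30, adjusted p = 0.754), and Gata3 458 and 525 CPM in control livers, 628 and 465 CPM in pre-metastatic livers and 407 and 562 CPM in macro-metastatic livers (0.07, adjusted p = 0.930). The count of 8 was 3 without macro-metastatic replicate 1, 4 without control replicate 1 and 5 without control replicate 2. Ccr8, the chemokine receptor that marks tumour regulatory T cells in other settings, was detected in macro-metastatic libraries only, at 17.0 and 21.5 CPM from 7 UMIs.

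Resting genes fell for 3 of 14 tested and rose for 0, with a median of −0.86. Tcf7 had 352 and 320 CPM in control livers, 295 and 118 CPM in pre-metastatic livers and 50.9 and 72.9 CPM in macro-metastatic livers (−2.31, SE 0.41, adjusted p = 0.00178), against −0.05 in the other Cd4+ T cells. Lef1 had 393 and 371 CPM in control livers, 270 and 294 CPM in pre-metastatic livers and 136 and 142 CPM in macro-metastatic livers (−1.39, SE 0.29, adjusted p = 0.00575), and −1.34 (adjusted p = 0.0666) without control replicate 1. Both factors were lowest in the macro-metastatic libraries, with no overlap with the others. Without control replicate 1 only 1 of the 3 was called, and 2 without control replicate 2. Ccr7, another resting gene, had 106 and 89.6 CPM in control livers, 107 and 65.8 CPM in pre-metastatic livers and 50.9 and 287 CPM in macro-metastatic livers (0.98, adjusted p = 0.294).

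Of 8 suppressive cytokines and enzymes 3 rose and 1 fell (median 0.83). Gzmb, the cytotoxic protease granzyme B, had 20.5 and 70.4 CPM in control livers, 94.3 and 184 CPM in pre-metastatic livers and 788 and 197 CPM in macro-metastatic livers (3.54, SE 0.62, adjusted p = 0.00152, and 0.0517 by DESeq2), against 0.01 in the other Cd4+ T cells. Gzmb was not among the genes whose change differed between these 2 sets in the test given further below. Areg and the galectin gene Lgals1 were the others that rose, and Nt5e the one that fell. Il10 had 69.6 and 6.40 CPM in control livers, 69.1 and 0 CPM in pre-metastatic livers and 84.8 and 120 CPM in macro-metastatic livers (1.34, SE 0.76, adjusted p = 0.369). Of 9 inhibitory receptors 1 rose, Klrg1, with Pdcd1, the PD-1 gene, at 36.8 and 25.6 CPM in control livers, 37.7 and 35.1 CPM in pre-metastatic livers and 93.3 and 77.2 CPM in macro-metastatic livers (1.42, adjusted p = 0.148). Among 10 TGF-beta pathway genes 0 were called (median −0.48). Of 13 interleukin-2 and STAT5 genes 3 rose (median 0.42). The kinase gene Pim1 had 2679 and 2051 CPM in macro-metastatic and 974 and 1108 CPM in control libraries (1.25, SE 0.22, adjusted p = 0.00146, with 2.63 in other Cd4+ T cells). Cish and Stat5a, the others, each lost the call without either macro-metastatic library and without control replicate 1, and Cish also without control replicate 2. Of 18 homing receptors 1 rose and 2 fell (median 0.29). Ccr2, the receptor for CCL2, had 315 and 461 CPM in control livers, 760 and 465 CPM in pre-metastatic livers and 1195 and 579 CPM in macro-metastatic livers (1.24, SE 0.33, adjusted p = 0.0326), and 0.67 (adjusted p = 0.367) without macro-metastatic replicate 1 and 1.00 (adjusted p = 0.272) without control replicate 1. The integrin chain gene Itgb1 was among those that fell, and lost the call without any 1 of the macro-metastatic and control libraries (−0.78 to −1.17).

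Of 25 transcription factor genes 7 rose and 0 fell, with a median of 0.43. Stat3, which relays interleukin-6 and interleukin-10 signals, had 172 and 173 CPM in control livers, 251 and 237 CPM in pre-metastatic livers and 619 and 725 CPM in macro-metastatic livers (2.03, SE 0.27, adjusted p = 0.000161, with 1.76 in other Cd4+ T cells and 1.30 in B cells), and the macro-metastatic libraries lay above all others. The orphan receptors Nr4a1, Nr4a2 and Nr4a3, induced by antigen receptor signals, rose by 1.18, 2.01 and 1.56. Nr4a1 lost the call without macro-metastatic replicate 2 (0.81, adjusted p = 0.212) and without control replicate 1 (0.94, adjusted p = 0.207), Nr4a2 without macro-metastatic replicate 1 (1.20, adjusted p = 0.157) and Nr4a3 without control replicate 1 (1.65, adjusted p = 0.0571). Rora, Rel and Id2 were the other 3. Rora is described above, and Rel lost the call without macro-metastatic replicate 2 and without either control library (0.92 to 1.43). Gata3, Maf and Ikzf2 were not called. The count of 7 was 4 without macro-metastatic replicate 1 and 3 without control replicate 1.

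Glycolysis and hypoxia genes rose for 5 of 15 tested (median 0.70). Gapdh had 184 and 243 CPM in control livers, 132 and 118 CPM in pre-metastatic livers and 1136 and 1373 CPM in macro-metastatic livers (2.64, SE 0.26, adjusted p = 2.57e-05), and Pkm 73.6 and 70.4 CPM in control livers, 88.0 and 105 CPM in pre-metastatic livers and 441 and 476 CPM in macro-metastatic livers (2.72, SE 0.31, adjusted p = 5.70e-05). Macro-metastatic livers stood apart from the 4 others in both enzymes. They rose in the other cell sets too, Gapdh by 2.69 in other Cd4+ T cells and 2.82 in B cells, and Pkm by 1.62 and 2.45. Eno1 (2.26), Gpi1 (2.23) and the lipid droplet gene Hilpda (2.61) were the other 3. Eno1 and Gpi1 lost the call without control replicate 1 (1.85, adjusted p = 0.0857, and 1.60, adjusted p = 0.124), and the count was 3 there. Of 12 NF-kB feedback genes 4 rose (Nfkbia 0.81, Traf1 1.19, Bcl2a1b 1.46, Rel 1.21; median 0.83), 1 without macro-metastatic replicate 1 or control replicate 1 and 0 without control replicate 2. Of 21 immediate-early and heat-shock genes 4 rose and 1 fell (median −0.08). These counts were 2 and 3 without macro-metastatic replicate 2, 2 and 1 without control replicate 1, 3 and 3 without control replicate 2, with no low-count filter and after thinning, and 4 and 3 without either pre-metastatic library or under the replicate block. The chaperone gene Hspa8 rose by 2.11 and Fosb by 2.21, while Fos had 220 and 176 CPM in macro-metastatic against 646 and 691 CPM in control libraries (−1.72, SE 0.27, adjusted p = 0.000665). In the other Cd4+ T cells these 3 changed by 1.83, 2.35 and −1.59, and in B cells by 2.5, 3.05 and −0.01. Of 14 genes of MHC class I presentation 1 rose, the immunoproteasome gene Psmb8 (2.66). Of 15 interferon-stimulated genes 1 rose and 1 fell (Slfn2, Ifi47), and both calls were lost without macro-metastatic replicate 1, Slfn2 also without control replicate 2 and Ifi47 without control replicate 1. Of 19 cell cycle genes 0 rose and 1 fell, Rrm2, which lost the call without macro-metastatic replicate 1 or control replicate 2. Mki67 stood at 270 and 749 CPM in control livers, 446 and 833 CPM in pre-metastatic livers and 339 and 416 CPM in macro-metastatic livers (−0.31, SE 0.38, adjusted p = 0.746).

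**Figure D4:**
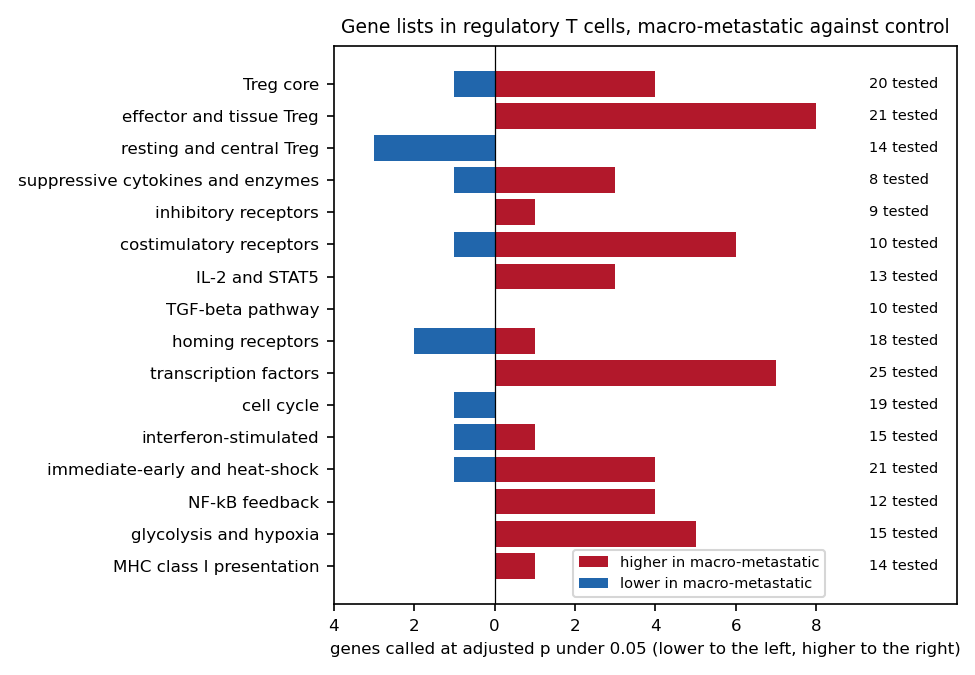
Number of genes of each list that edgeR called in regulatory T cells between macro-metastatic and control livers (x axis), higher to the right in red and lower to the left in blue, with the number tested at the right edge. Effector and tissue genes have 8 higher members of 21, costimulatory receptors 6 of 10, and resting genes 3 lower members of 14.

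Transcripts of other liver cells moved in the same sums. The summed level of 12 neutrophil genes in regulatory T cells was 36.8 and 12.8 CPM in control livers, 176 and 35.1 CPM in pre-metastatic livers and 5070 and 751 CPM in macro-metastatic livers. S100a8 and S100a9, the calprotectin genes, had 0 UMIs in control regulatory T cells and were at least 80.3-fold and 114-fold higher in macro-metastatic ones (against a floor of 3 counts over the control group). S100a8 rose by 9.04 in the other Cd4+ T cells and by 7.70 in B cells. The sum of 15 hepatocyte genes was 1890 and 1332 CPM in control livers, 314 and 289 CPM in pre-metastatic livers and 220 and 506 CPM in macro-metastatic livers, with Alb at 953 and 525 CPM in control livers, 44.0 and 43.9 CPM in pre-metastatic livers and 8.48 and 77.2 CPM in macro-metastatic livers (−3.78, SE 0.45, adjusted p = 6.16e-05, and −4.0 and −3.43 in the other 2 sets). Kupffer genes summed to 98.2 and 51.2 CPM in control livers, 94.3 and 127 CPM in pre-metastatic livers and 644 and 429 CPM in macro-metastatic livers, and monocyte and macrophage genes to 115 and 295 CPM in control livers, 233 and 153 CPM in pre-metastatic livers and 2196 and 283 CPM in macro-metastatic livers. Their called members were Cd5l, C1qc, Csf1r and Lyz2. The first 3 lost the call without macro-metastatic replicate 1 among others, and Lyz2 changed by 0.82 (adjusted p = 0.500) without macro-metastatic replicate 1. Genes of Cd8 T and NK cells summed to 65.5 and 115 CPM in control livers, 182 and 197 CPM in pre-metastatic livers and 500 and 120 CPM in macro-metastatic livers, those of dendritic cells to 65.5 and 960 CPM in control livers, 233 and 886 CPM in pre-metastatic livers and 458 and 455 CPM in macro-metastatic livers, and those of B cells to 263 to 358 CPM in all 6 libraries. Members without any UMI of the neutrophil and hepatocyte lists numbered 12 and 25 in control and 27 and 35 in pre-metastatic libraries. In the deeper macro-metastatic libraries they numbered 1 and 3. The part of these transcripts in the changes above and below was not tested.

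Among all genes the strongest rises by the fixed rule, after S100a8 and S100a9, were in Cxcl2, a neutrophil chemokine (6.23), and in genes with few control UMIs. Mt1, a metallothionein, had 86 UMIs in macro-metastatic and 1 in control sums (ratio 98.1, exact 95% counting interval 17.2 to 3921), the triglyceride synthesis gene Dgat1 64 and 2 (36.5, 9.71 to 308), the membrane protein gene Ifitm2 52 and 2 (29.7, 7.81 to 251) and the chemokine gene Ccl3 34 and 2 (19.4, 4.97 to 167). Ppp1ca, the catalytic subunit of protein phosphatase 1, had 12.3 and 32.0 CPM in control livers, 25.1 and 26.3 CPM in pre-metastatic livers and 373 and 305 CPM in macro-metastatic livers (4.07, SE 0.43, adjusted p = 2.92e-05). It changed by 3.78 in the other Cd4+ T cells and 3.27 in B cells. Mt2 (4.43) and the interleukin-1 gene Il1b (4.17) complete the rule. Neutrophil genes rose in the same sums. The part of transcripts from other liver cells in the rises of Cxcl2, Il1b, Ccl3 and Ifitm2 was not tested. Mt2 lost the call without macro-metastatic replicate 2 (3.45, adjusted p = 0.172), Il1b without macro-metastatic replicate 1 (2.51, adjusted p = 0.0563), and Ccl3 without macro-metastatic replicate 1, control replicate 1 or control replicate 2. The strongest falls were in Pck1, an enzyme of gluconeogenesis made by hepatocytes, with 1 UMI in macro-metastatic and 80 in control sums (ratio 0.0143, 0.000357 to 0.0818), and in Tbc1d4, a regulator of glucose transporter traffic, with 3 UMIs and 75 (0.0456, 0.00921 to 0.139). Tbc1d4 had 254 and 83.2 CPM in control livers, 138 and 26.3 CPM in pre-metastatic livers and 17.0 and 4.29 CPM in macro-metastatic livers, changed by 0.17 in the other Cd4+ T cells, and lost the call without control replicate 1 (−3.07, adjusted p = 0.153). Then followed Alb and Gc, both made by hepatocytes, Aff3, Ift80, Tcf7, Nt5e, Il6ra and L3mbtl3, of which Gc and Aff3 lost the call without control replicate 1 and L3mbtl3 without either control library or macro-metastatic replicate 2. Il6ra, the interleukin-6 receptor chain, had 180 and 435 CPM in control livers, 327 and 175 CPM in pre-metastatic livers and 50.9 and 77.2 CPM in macro-metastatic livers (−2.07, SE 0.46, adjusted p = 0.00971, and −1.36, adjusted p = 0.120, without control replicate 2).

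In the pre-metastatic stage few differences passed. Against the same 2 control libraries edgeR called 2 of 4148 genes, 0.0482%, both lower: Alb at 44.0 and 43.9 CPM in pre-metastatic and 953 and 525 CPM in control libraries (−4.11, adjusted p = 0.000207), and Pck1 at 6.28 and 13.2 CPM against 102 and 352 CPM (−4.35, adjusted p = 0.0153). Pck1 lost the call without pre-metastatic replicate 1 (−3.98, adjusted p = 0.173) and without control replicate 2 (−3.27, adjusted p = 0.615). DESeq2 also called 2, and 205 genes had an unadjusted p under 0.05. Icos changed by 1.03 (SE 0.21, adjusted p = 0.0905), with both pre-metastatic libraries above both control libraries. It passed with DESeq2 (adjusted p = 0.00515), on thinned barcodes (0.0343), with the replicate number as a block (0.0307) and without macro-metastatic replicate 1 (0.0250) or 2 (0.0295), but not with a Cd4 UMI required (0.76, adjusted p = 0.999). In the other Cd4+ T cells Icos had 513 and 599 CPM in control livers, 1028 and 1029 CPM in pre-metastatic livers and 1134 and 1010 CPM in macro-metastatic livers. The chemokine receptor gene Ccr4 had 126 and 140 CPM in pre-metastatic and 49.1 and 64.0 CPM in control libraries (1.21, adjusted p = 0.718). Of the regulatory T cell lists 0 members were called, read against the 0.0482% of all genes. In the other Cd4+ T cells 9 of 7976 genes were called, all higher (0.113%).

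Between macro-metastatic and pre-metastatic livers 158 of 4148 genes were called, 3.81%, 140 higher (3.38%) and 18 lower (0.434%). In the other Cd4+ T cells 637 of 7976 were called (7.99%, with 5.33% higher and 2.66% lower). Gapdh (3.44), Tnfrsf18 (2.77), Tnfrsf9 (2.60), Hspa8 (2.47), Cd2 (2.03) and Stat3 (1.58) were higher, and Fos (−2.04), the T cell factor gene Bcl11b (−2.08) and the thioredoxin-interacting protein gene Txnip (−1.92) lower, under every alternative run in which they were tested. Bcl11b had 127 and 103 CPM in macro-metastatic and 572 and 460 CPM in pre-metastatic libraries. Icos differed by 0.06 (adjusted p = 0.925). Of the costimulatory list 4 of 10 were higher and of the effector list 4 of 21, among them Klrg1 (1.43) and Areg (1.96), which both lost the call without macro-metastatic replicate 1 (0.95, adjusted p = 0.254, and 1.17, adjusted p = 0.232) and without pre-metastatic replicate 1 (1.53, adjusted p = 0.102, and 1.63, adjusted p = 0.144), and Klrg1 also without pre-metastatic replicate 2 (1.27, adjusted p = 0.145). Tnfrsf4 was higher by 1.43, and by 1.08 (adjusted p = 0.231) without pre-metastatic replicate 1. The count of 158 was 83 without pre-metastatic replicate 1.

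Whether regulatory T cells changed differently from the other Cd4+ T cells of the same libraries was tested as an interaction. Between macro-metastatic and control livers 12 of 5542 genes were called, 0.217%, with 3 changes higher (0.0541%) and 9 lower (0.162%) in regulatory T cells, while 397 had an unadjusted p under 0.05. Id2 changed by 1.67 in regulatory T cells and by −0.65 in the other Cd4+ T cells, a difference of 2.28 (SE 0.28, adjusted p = 0.00195). Tcf7 changed by −2.31 and −0.05 (−2.34, SE 0.39, adjusted p = 0.0203), and Ccr2 by 1.24 and −0.46 (1.66, SE 0.29, adjusted p = 0.0203). Ctla4 changed by 0.18 in regulatory T cells, whereas in the other Cd4+ T cells it had 178 and 145 CPM in control livers, 278 and 263 CPM in pre-metastatic livers and 519 and 340 CPM in macro-metastatic livers (1.52), a difference of −1.32 (SE 0.26, adjusted p = 0.0409). Pim1 and Crip1 rose in both sets and less in regulatory T cells. Of the 12 genes, 0 were called without macro-metastatic replicate 1, where the test called 0 genes in all, 8 without macro-metastatic replicate 2, 2 without control replicate 1, 5 without control replicate 2, and all 12 without either pre-metastatic library. Ctla4 lost the call also without either control library, Tcf7 without macro-metastatic replicate 2 or control replicate 1, and Ccr2 without any 1 of the macro-metastatic and control libraries. Id2 lost it without macro-metastatic replicate 1 only (2.19, adjusted p = 0.0733). Tnfrsf9, Tnfrsf4, Tnfrsf18, Icos, Stat3, Gapdh, Gzmb and Tbc1d4 were not among the 12, which shows neither that they changed alike nor that they changed differently. Between pre-metastatic and control livers 3 genes were called, 0.0541%, of 236 with an unadjusted p under 0.05: Alb, Gc and Cybb. Alb was called whichever library was left out, whereas Gc lost the call in 4 of these 6 fits (−2.79 to −3.83) and Cybb in 5 (−2.67 to −3.00).

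**Figure D5:**
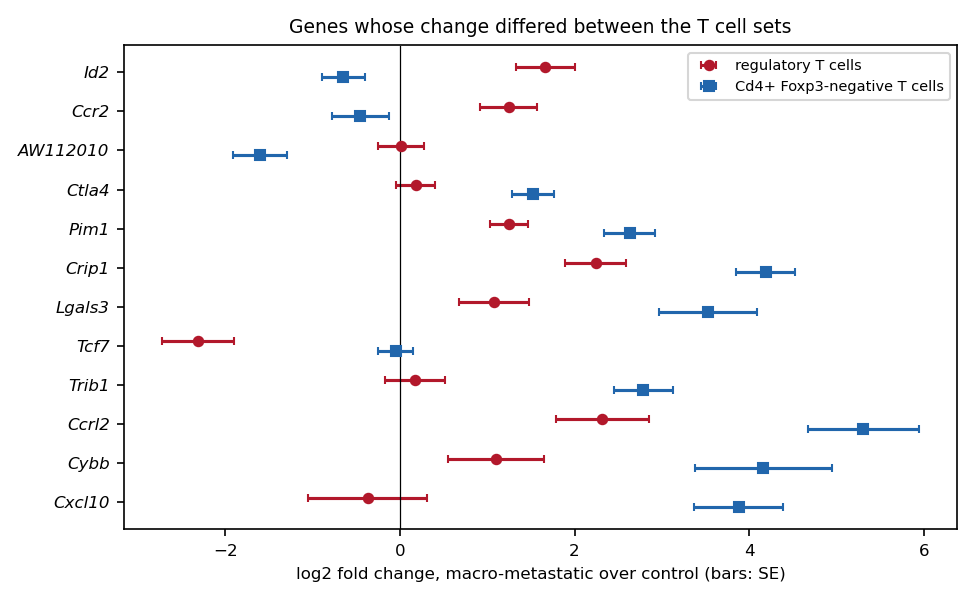
Log2 change between macro-metastatic and control livers (x axis, bars SE of the fit) of the 12 genes whose change differed between regulatory T cells (red circles) and Cd4+ Foxp3-negative T cells (blue squares). Tcf7 fell by 2.31 in regulatory T cells and lies at −0.05 in the other set, and Ctla4 lies at 0.18 and 1.52.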

How the data were processed

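Single-cell RNA was measured in 6 mouse liver libraries, 2 per group. The authors deposited raw UMI counts for each gene and barcode. CASAVA 1.8, UMI-tools and build mm10 (GRCm38) are named per the submitters' processing notes. Aligner and annotation were not given in the sources used here. Strand use is not stated, so overlapping genes cannot be told apart. Gene positions came from the GENCODE annotation of that build, which matched 31107 of 31253 feature IDs, and start regions from RefSeq (GRCm38.p6). The 71908 barcodes were filtered and gated as stated in the report. The T cell sets were regulatory (394), Cd4+ Foxp3-negative (2127) and Cd8a+ or Cd8b1+ (2386). Doublets were predicted per library with scrublet (scanpy 1.11.5, Python 3.11.15, expected rate 6%, common score threshold 0.282) and left out as an alternative only.

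Cells are not replicates, so UMI counts were summed per library and set. The main test was the quasi-likelihood test of edgeR 4.0.16 under R 4.3.3. Genes passed filterByExpr, library sizes were scaled by TMM, p-values were adjusted by Benjamini-Hochberg across every gene tested, and calls were made at adjusted p under 0.05. All 6 libraries entered the stage fit, which left 3 residual degrees of freedom. Comparisons with another T cell set kept the library as a block. DESeq2 1.42.0 was an alternative. An SE is printed for some log2 changes and is the size of the change over the square root of the test's F statistic. Printed CPM are unscaled. A fit without a library leaves that group a single one, whose spread is taken from the other groups. List counts cover the members that passed this filter. Intervals are exact and cover counting error only. Macro-metastatic and pre-metastatic livers were set against the same controls. The steps were tested on simulated data.

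Members, lists and tests were chosen with earlier results of these data known. Named genes were, in each comparison, up to 10 higher and 10 lower called genes with the largest change at a mean log2 CPM of at least 6 and groups that did not overlap (same direction in 6 of 6 libraries between cell sets), up to 4 members per list by smallest p, and Foxp3, Ctla4, Ikzf2 and Cd3e. Other members named with a value, such as Ccr8, Il10, Pdcd1 and Ccr7, were chosen after their values were seen. Results that need 1 further gene are not reported here.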

Additional observations from a re-analysis of the deposited data

Results flagged for a closer look

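The following 15 results stood out because the change of regulatory T cells between stages differed from that of the Cd4+ Foxp3-negative T cells of the same libraries, by edgeR's quasi-likelihood test of the difference itself. All values are log2 changes of regulatory T cells minus those of the other Cd4+ T cells.

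Between macro-metastatic and control livers the difference was positive for Id2 (2.28, adjusted p = 0.00195), the chemokine receptor gene Ccr2 (1.66, adjusted p = 0.0203) and the non-coding transcript AW112010 (1.57, adjusted p = 0.0409). AW112010 had 695 and 532 CPM in macro-metastatic and 704 and 544 CPM in control regulatory T cells, against 232 and 171 CPM and 851 and 459 CPM in the other Cd4+ T cells. It was negative for Tcf7 (−2.34, adjusted p = 0.0203), Ctla4 (−1.32, adjusted p = 0.0409) and Pim1 (−1.33, adjusted p = 0.0203), as well as for Crip1 (−1.89, adjusted p = 0.0241), Trib1 (−2.60, adjusted p = 0.00869), Lgals3 (−2.28, adjusted p = 0.0300), Ccrl2 (−2.86, adjusted p = 0.0203), Cybb (−2.89, adjusted p = 0.0118) and the chemokine gene Cxcl10 (−3.88, adjusted p = 0.0203). Cxcl10 had 327 CPM in regulatory T cells of control replicate 2 and 32.7 CPM in those of control replicate 1, and its difference was −2.05 (adjusted p = 0.781) without control replicate 2. Cybb, Ccrl2 and Lgals3 are also made by myeloid cells, whose transcripts moved with stage in both sets, and their part in these differences was not tested. Nor was the part of regulatory T cells whose Foxp3 was missed and which may lie in the comparison set, in the Ctla4 difference among others. Of the 12 genes, 0 were called without macro-metastatic replicate 1, 8 without macro-metastatic replicate 2, 2 without control replicate 1, 5 without control replicate 2, 9 with doublets left out and 5 after thinning.

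Between pre-metastatic and control livers the difference was negative for Alb (−3.38, adjusted p = 0.000279), Gc (−3.30, adjusted p = 0.0427) and Cybb (−2.81, adjusted p = 0.0427). Alb had 44.0 and 43.9 CPM in pre-metastatic and 953 and 525 CPM in control regulatory T cells, against 288 and 381 CPM and 840 and 290 CPM in the other Cd4+ T cells. Alb was called whichever library was left out. Gc lost the call without macro-metastatic replicate 1 (−3.33, adjusted p = 0.0549), either pre-metastatic library (−3.83, adjusted p = 0.161, and −2.79, adjusted p = 0.485) or control replicate 2 (−3.05, adjusted p = 0.120), and with doublets left out (−2.41, adjusted p = 0.308). Cybb lost it in 5 of the 6 fits without a library, all but that without macro-metastatic replicate 2 (−2.67 to −3.00), and after thinning (−1.88, adjusted p = 0.912).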

How the results depend on the processing

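The numbers of called genes moved with the settings. Between macro-metastatic and control livers the count of 230 was 99 with DESeq2, 402 with no low-count filter, 104 on barcodes thinned to 1000 UMIs, and 107 to 301 with a library left out. Between pre-metastatic and control livers the count of 2 was 35 with no low-count filter, 6 after thinning, 1 with a Cd4 UMI required, and 1 to 18 with a library left out. Between macro-metastatic and pre-metastatic livers the count of 158 was 61, 258 and 66 with DESeq2, no filter and thinning, and 83 to 191 with a library left out. Thinning, which tests fewer genes, gave 550 calls against other Cd4+ T cells and 655 against Cd8 T cells, where leaving out a library gave 1052 to 1276 and 823 to 1067. The interaction called 35 genes with no filter and 0 to 16 with a library left out for macro-metastatic against control livers, and 6 with RLE factors, 28 with no filter, 1 after thinning and 1 to 15 with a library left out for pre-metastatic against control livers. The share of T cells differed by 0.93 with 2 Cd3 UMIs required, 0.84 at 1000 UMIs and 0.89 at 750 UMIs, all called, by 0.89 with 2 Foxp3 UMIs and 0.60 with a Cd4 UMI required, not called, and by 0.27 to 0.52 with a library left out, never called. Macro-metastatic against pre-metastatic shares differed by −0.16 to 0.32. The cause of these changes was not tested, apart from the fewer genes or libraries that entered a setting.

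Deviations of same-numbered libraries correlated at 0.108, −0.0175 and 0.0551 over genes. These low values cannot exclude that replicate numbers pair the libraries, since sums of 32 to 101 cells carry much counting noise. With the replicate number as a block 315, 17 and 224 genes were called in the 3 stage comparisons in the order above, against 230, 2 and 158 without it. The share differed by 0.38, 0.31 and 0.07 with the block, none called.

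Values near 0 changed sign: Ikzf2 between macro-metastatic and control livers with a Cd4 UMI required (0.0148) and from −0.21 to 0.15 with a library left out, Mki67 (−0.90 to 0.55), Il2ra and Mki67 between pre-metastatic and control livers (−0.58 to 0.40 and −0.22 to 1.24), and Ctla4 (−0.43 to 0.0958) and Icos (−0.0774 to 0.16 with a library left out, −0.0371 with no filter, −0.0518 after thinning) between macro-metastatic and pre-metastatic livers. Of 1593 values of called and marker genes over the other settings 1448 kept direction and side of the threshold, 138 lost the call, 4 gained it and 3 changed sign. Called genes were chosen by the main fit, which favours a kept direction. Leaving doublets out removed 0 regulatory T cells, so the stage values of that setting were kept by construction. With a library left out, of 1898 values 1642 kept both, 245 lost the call, 2 gained it and 9 changed sign. With 32 to 101 cells per library, a gene at 1 or 2 UMIs could not be compared.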
